A study of Mus musculus with 41 samples.

Results

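*Cxcl9* and *Cxcl10* were 2 of the 54 mouse target genes whose Ct values were deposited. Both were taken by name, with earlier results of these data known. They were followed in all 41 mice, which were female NSG mice with a subcutaneous wound in the lower abdomen. The P groups received an electrospun nanomesh of PLACL, a degradable copolymer of lactic acid and caprolactone, and the P+eMSC groups received the same nanomesh with human SUSD2+ endometrial mesenchymal stem/stromal cells (eMSC), labelled with mCherry by a lentivirus, pipetted on top. The eMSC came from biopsies of 7 women, each of which gave 1 cell line. The sham groups had no nanomesh. At 1 week there were 6 P, 7 P+eMSC and 7 sham mice, and at 6 weeks there were 8 P, 7 P+eMSC and 6 sham mice. All groups carried the NSG background, a NOD strain that lacks mature T cells, B cells and NK cells, so the host kept macrophages, which are impaired in this strain, neutrophils and stromal cells. The ages of the mice were not given in the sources used here. RNA came from skin close to the nanomesh, not from the cells inside it, and for bulk tissue of this kind fewer cells of a type and less RNA per cell cannot be told apart.

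CXCL9 and CXCL10 are chemokines that bind the receptor CXCR3, which is best known on activated T cells and NK cells. CXCL9 is made chiefly in response to interferon gamma, mostly by macrophages, while CXCL10 is also induced by type I interferons and by NF-kB signals such as TNF, and comes from macrophages, fibroblasts, endothelial cells and keratinocytes. In an NSG mouse the main lymphocyte sources of interferon gamma and the main CXCR3-bearing cells are missing, so the question was how the transcripts of both chemokines went together or apart in P, P+eMSC and sham tissue over time. Neither *Cxcr3* nor the third ligand *Cxcl11* was among the genes analysed here.

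Both genes lie side by side on mouse chromosome 5, *Cxcl9* (gene ID 17329) at chr5:92321331-92328079 and *Cxcl10* (gene ID 15945) at chr5:92346638-92348889 in GRCm38.p6, with 18558 bases between them. RefSeq lists *Cxcl11* further along the chromosome, at chr5:92359544-92363296, as a transcribed pseudogene in this build. The 250 bases before the start site of each gene, at chr5:92328080-92328329 for *Cxcl9* and chr5:92348890-92349139 for *Cxcl10*, both on the minus strand, are shown because the neighbours differ there. Both strands were searched for the ISRE core GAAANNGAAA, found in many interferon-responsive genes, and for the NF-kB consensus, and the matches are in capitals.
*Cxcl9* promoter: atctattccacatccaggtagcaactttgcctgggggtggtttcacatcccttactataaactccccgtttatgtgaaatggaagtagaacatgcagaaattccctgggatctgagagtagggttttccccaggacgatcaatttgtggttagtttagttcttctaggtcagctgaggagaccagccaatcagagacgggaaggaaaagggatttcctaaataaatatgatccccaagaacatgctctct
*Cxcl10* promoter: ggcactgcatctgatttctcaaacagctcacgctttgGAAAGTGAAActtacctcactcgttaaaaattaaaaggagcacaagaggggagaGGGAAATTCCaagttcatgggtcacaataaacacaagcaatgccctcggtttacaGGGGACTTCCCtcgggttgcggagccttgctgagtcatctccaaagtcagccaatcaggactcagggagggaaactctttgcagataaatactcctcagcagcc
The *Cxcl10* window held 1 ISRE core, which began 213 bases before the start site, and 3 NF-kB matches, which began 159, 104 and 103 bases before it and of which the last 2 overlapped each other. The *Cxcl9* window held 0 matches to these letters, which says nothing about whether the factors bind there. Of 32851 promoter windows of this length in the RefSeq table, 2.98% held an ISRE core and 7.25% an NF-kB match. The sequences are those of the reference genome and not of the NSG strain.

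Levels are given as the Ct of 18S (*Rn18s*) minus the Ct of the gene, a log2 scale on which 1 unit is a doubling and a value nearer 0 is a higher level. The assays of both genes can differ in efficiency, so values of *Cxcl9* and *Cxcl10* were never set against each other as amounts of RNA. Both genes gave a Ct in 40 of 41 mice, between 15.28 and 24.93 for *Cxcl9* and between 13.49 and 23.79 for *Cxcl10*. The exception for both was mouse 52 of the P group at 6 weeks, in which 31 of the 54 genes gave no Ct. The median over the 23 genes detected in every mouse (the panel median) was -16.94 relative to 18S in mouse 52 and between -10.52 and -7.70 in the other 7 mice of that group. Of the tissue markers, *Col1a1* and *Col3a1* of stroma and *Mrc1* of macrophages were detected in 41 mice and *Cdh1* of epithelium in 40. The stromal and macrophage genes gave a Ct in mouse 52 as well, so detection alone does not test the tissue label.

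The mice of a group differed widely in both genes. The standard deviation within groups was 2.48 (log2) for *Cxcl9* and 2.53 for *Cxcl10*, which ranked 10 and 9 among the 54 genes. Over all mice *Cxcl9* ran from -17.96 in mouse 133 to -8.57 in mouse 2358, a 672-fold range. *Cxcl10* ran from -16.85 in mouse 78 to -6.70 in mouse 408, a range of 1141-fold. Relative to the panel median of each mouse the ranges were narrower, 98.6-fold for *Cxcl9* and 160-fold for *Cxcl10*. Part of the spread relative to 18S was thus shared with the panel. The spread on either scale limited which differences between groups could be detected.

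At 1 week the lowest, median and highest *Cxcl9* levels were -15.96, -14.49 and -10.02 in sham, -17.96, -13.94 and -10.86 in P, with -17.35, -12.69 and -8.57 in P+eMSC. At 6 weeks they were -15.16, -13.68 and -8.65 in sham, then -17.75, -14.81 and -11.46 in P, with -14.31, -11.37 and -8.59 in P+eMSC. The P+eMSC mice thus had the highest median at both weeks, but every group overlapped with every other. Ordered by their medians, the groups ran from P+eMSC at 6 weeks through P+eMSC at 1 week, sham at 6 weeks, P at 1 week and sham at 1 week to P at 6 weeks. Neighbours in this order were 0.26 to 1.32 apart, which was 0.0973 to 0.573 of the smaller standard deviation of the pair, so no neighbours differed beyond their spread.

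For *Cxcl10* the lowest, median and highest levels at 1 week were -15.17, -13.01 and -7.68 in sham, -15.00, -11.25 and -8.55 in P, with -16.85, -12.76 and -8.49 in P+eMSC. The 6 week values were -13.05, -11.84 and -6.70 in sham, -15.11, -14.04 and -9.40 in P, with -14.75, -12.30 and -6.76 in P+eMSC. The highest P value at 6 weeks was that of mouse 2356, whose deposited fold changes followed the 1 week sham. It was kept at 6 weeks by its label. Here P at 1 week stood first and P at 6 weeks last, with sham at 6 weeks, P+eMSC at 6 weeks, P+eMSC at 1 week and sham at 1 week between them. Neighbours were 0.25 to 1.03 apart, 0.101 to 0.470 of the smaller standard deviation. P at 1 week and sham at 6 weeks thus stood above both P+eMSC groups for *Cxcl10* and below them for *Cxcl9*. This held relative to the panel median as well. P at 6 weeks had the lowest median of both genes only on the scale used here. Relative to the panel median the lowest *Cxcl9* median was that of sham at 6 weeks (-6.05, against -5.67 in P at 6 weeks). The lowest *Cxcl10* median was then that of P+eMSC at 6 weeks (-5.28, against -4.59 in P at 6 weeks). The highest *Cxcl9* median was then that of P+eMSC at 1 week (-4.09, against -4.43 at 6 weeks).

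**Figure D1:**
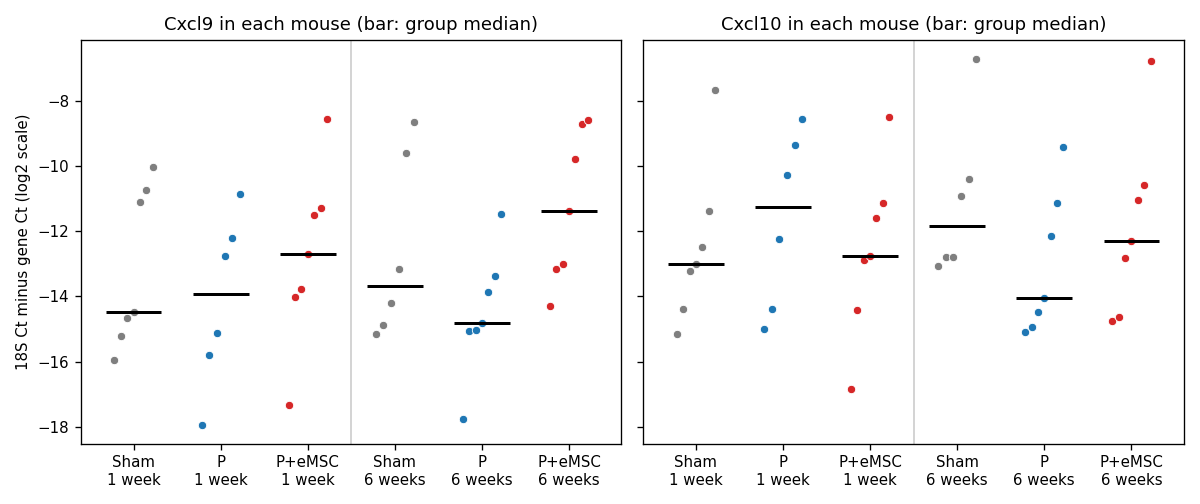
Level of *Cxcl9* (left) and *Cxcl10* (right) in each mouse as 18S Ct minus gene Ct on a log2 scale, with 1 point a mouse and a bar at the median of each group; mouse 52 had no Ct for either gene. P+eMSC at 6 weeks had the highest *Cxcl9* median (-11.37) and P at 1 week the highest *Cxcl10* median (-11.25).

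Of the 9 comparisons relative to 18S, *Cxcl9* was called in P+eMSC against P at 6 weeks and *Cxcl10* in none, and whether the genes differ from each other was tested separately, as given further on. *Cxcl9* was higher in P+eMSC compared to P alone by 3.44 (log2; 95% interval 0.50 to 6.23), or 10.9-fold, with p = 0.0111 by the exact Mann-Whitney U test (two-sided). All 7 P+eMSC mice lay above the P median and 4 lay above every P mouse, and the groups still overlapped. *Cxcl10* differed by 1.13 (-1.69 to 4.08, exact p = 0.456), with 5 of 7 P+eMSC mice above the P median. At the threshold of the methods, p of 0.0513 or less, 18.5% of the 54 genes were called in this comparison, 10 in number and all higher. The *Cxcl9* shift was the largest of the 54 and that of *Cxcl10* ranked 30, beside a median shift of 1.16 over all genes. Ranked by exact p, *Cxcl9* stood at 3 and *Cxcl10* at 37. After Benjamini-Hochberg adjustment over the 54 genes the exact test gave 0.158 for *Cxcl9*, and 0 genes had an adjusted p below 0.05. Mouse 52, with no Ct for either chemokine, did not enter these values, and without it, an alternative chosen after seeing the data, 8 genes were called in place of 10.

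Because 47 of the 54 genes had a shift above 0 in P+eMSC against P at 6 weeks, both chemokines were also set against the panel median of the same mouse. In the mice with both chemokines detected the panel median itself lay 0.96 higher relative to 18S in P+eMSC (-0.23 to 2.73, exact p = 0.0728), and with mouse 52 it lay 1.42 higher (exact p = 0.0401). Relative to the panel median *Cxcl9* was higher in P+eMSC by 1.73 (0.01 to 3.87, exact p = 0.0379, adjusted 0.487). This was again the largest shift of the 54 genes, and 7 of 7 P+eMSC mice lay above the P median. On this scale too 0 genes had an adjusted p below 0.05. *Cxcl10* turned to -0.43 (-2.53 to 1.92, exact p = 0.710). With this reference 2 genes were called, *Cxcl9* higher and *Ccl2*, a monocyte chemokine, lower. *Mmp2*, *Tgfb3*, *Tgfbr1*, *Timp3*, *Vegfa*, *Itgb1* and *Ccl11*, called relative to 18S, are themselves among the genes of the panel median. By animal number the 18S-relative shift of *Cxcl9* was 3.75 in mice numbered below 1000 (2 against 4, exact p = 0.267) and 2.48 in those above 2000 (5 against 3, exact p = 0.143), where the smallest p possible was 0.133 and 0.0357.

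Cell type markers were read beside this result. Over all 54 genes 18.5% were called in this comparison relative to 18S, with a median shift of 1.16 (0.99 without mouse 52). Of the 8 macrophage and myeloid markers listed, *Mrc1*, *Arg1*, *Ccr1* and *Ccr2* were in the table. The shifts of these 4 had a median of 1.65 (-0.49 to 2.26), or 1.05 (-0.49 to 1.75) without mouse 52, in which 3 of them gave a Ct, and 0 of 4 were called either way. Their mean level (here and below without mouse 52) ran from -13.28 to -8.36 in P and from -14.08 to -7.74 in P+eMSC. *Ccr7*, a receptor of dendritic cells and classically activated macrophages and the only 1 of 5 lymphoid and dendritic genes in the table, shifted by 1.28 and was not called, with levels of -19.75 to -11.80 in P and -18.08 to -11.56 in P+eMSC. Of 5 stromal genes, 1 was called, the growth factor gene *Pdgfa* (higher by 1.17), and their median shift was 1.43 (1.17 without mouse 52), with mean levels of -8.19 to -5.30 in P and -7.33 to -3.38 in P+eMSC. The 4 endothelial and perivascular genes had a median shift of 1.23 with 0 called, and mean levels of -14.64 to -11.21 in P and -12.80 to -9.78 in P+eMSC. *Cdh1*, the epithelial cadherin, shifted by 1.37, was not called, and lay between -18.99 and -8.63 in P and between -15.39 and -5.95 in P+eMSC. Relative to the panel median these lists had medians of -0.14, -0.48, -0.25, -0.04 and 0.42 with 0 called in each. Over all 54 genes the median on this scale was -0.25. *Mrc1*, *Arg1*, *Ccr2*, *Col1a1*, *Col3a1* and *Cxcl12* are themselves among the 23 genes of the panel median. The macrophage and stromal values on this scale were thus partly measured against themselves. None of these markers was undetected in any P+eMSC mouse at 6 weeks, and their part in the *Cxcl9* result was not tested.

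At 1 week neither chemokine differed significantly between P+eMSC and P. *Cxcl9* lay 1.30 higher (-1.83 to 4.52, exact p = 0.445) and *Cxcl10* lay 1.09 lower (-4.32 to 2.80, exact p = 0.628), so the estimates had opposite signs. By animal number *Cxcl9* lay higher in both series, by 3.13 below 1000 (4 against 2) and 1.51 above 2000 (3 against 4), while *Cxcl10* was 1.37 below 1000 and -2.82 above 2000, so the opposite signs held in 1 series. In this comparison 0% of the 54 genes were called (0 also at an unadjusted p below 0.05, and 5 with the panel median as reference). The *Cxcl9* shift was the largest of the 54 and that of *Cxcl10* ranked 40, while by exact p they ranked 14 and 27. Relative to the panel median the values were 1.46 (exact p = 0.295) and -1.16 (exact p = 0.234). In limma the interaction of the P+eMSC against P difference with week was 1.83 ± 1.83 (SE) for *Cxcl9* (adjusted p = 0.530) and 2.15 ± 1.86 for *Cxcl10* (adjusted p = 0.504). Of the 54 genes 0% were called, and 0 had an unadjusted p below 0.05, so a change of the eMSC difference between 1 and 6 weeks was not shown for either chemokine.

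Against sham tissue at 1 week, P differed by -0.97 in *Cxcl9* (-4.71 to 3.03, exact p = 0.534) and by 0.88 in *Cxcl10* (-2.51 to 4.46, exact p = 0.628), where 5.56% of genes were called, all 3 of them lower (with the panel median 3 were called as well, all of them higher). P+eMSC differed from the same sham mice by 0.73 in *Cxcl9* (-2.86 to 3.37, exact p = 0.805) and by 0.24 in *Cxcl10* (-3.64 to 2.88, exact p = 0.902), with 0% called. The sign of the *Cxcl10* value in P+eMSC turned with the panel median (-0.34) and with the difference in means (-0.12). At 6 weeks P lay below sham in both genes, by -1.26 in *Cxcl9* (-5.43 to 1.31, exact p = 0.366) and by -1.83 in *Cxcl10* (-4.55 to 1.51, exact p = 0.181). In that comparison 25.9% of genes were called, all 14 lower, and neither chemokine was among them. With the panel median as reference 7 genes were called, all higher, so the direction of the calls turned with the reference, and again neither chemokine was called. By animal number the sign of both turned, from -2.70 and -3.84 below 1000 (4 against 4) to 0.58 and 1.79 above 2000 (3 against 2). P+eMSC at 6 weeks lay above sham in *Cxcl9* by 1.10 (-2.72 to 5.39, exact p = 0.295) and below it in *Cxcl10* by 0.42, a shift of -0.42 (-4.23 to 2.21, exact p = 0.534), with 0% called. The Ct of 18S itself was 0.32 higher in these P+eMSC mice than in sham (0.09 to 0.68, exact p = 0.0140), and its part in these values was not tested. The P and P+eMSC comparisons shared their sham mice. With the interaction terms of limma 0% of genes were called for P against sham and 0% for P+eMSC against sham, and 0 had an unadjusted p below 0.05 in either.

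Over time the estimates again differed between the genes, but none passed the test. From 1 to 6 weeks *Cxcl9* shifted by -0.27 in P (exact p = 1), by 1.32 in P+eMSC (exact p = 0.535) and by 0.64 in sham (exact p = 0.534). *Cxcl10* shifted by -1.32 in P (-5.12 to 2.23, exact p = 0.366), by 0.54 in P+eMSC (exact p = 0.710) and by 1.45 in sham (-1.43 to 4.67, exact p = 0.234), the last being the largest shift of the 54 genes. The share of genes called was 0% in P, 0% in P+eMSC and 3.7% in sham. With the panel median as reference the *Cxcl9* shifts in P and sham (0.01 and -0.04) and the *Cxcl10* shift in P+eMSC (-0.06) changed sign.

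**Figure D2:**
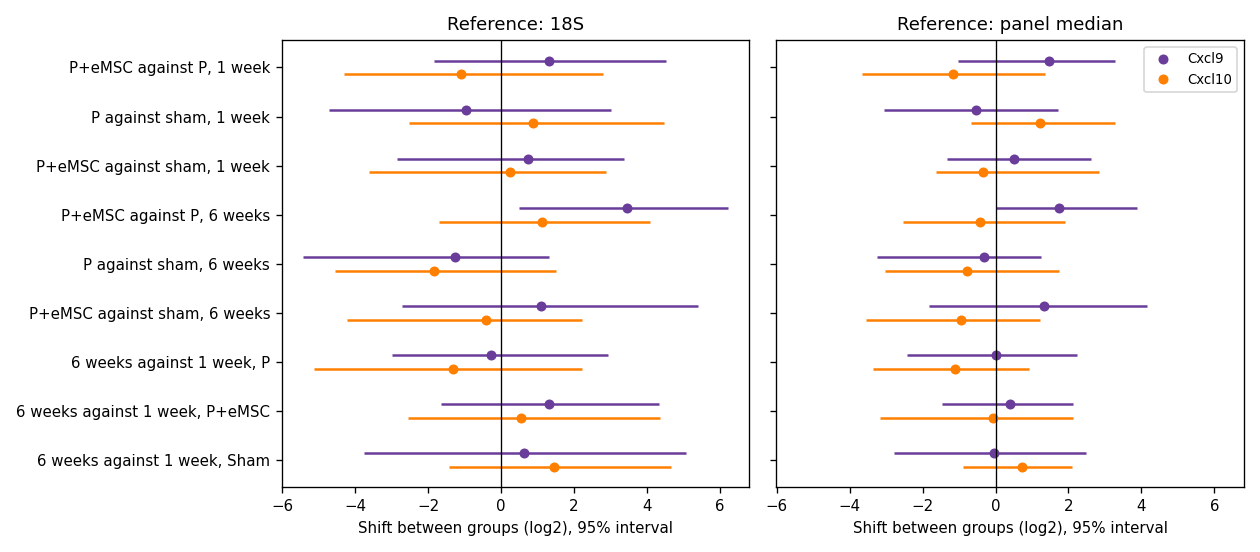
Shift of *Cxcl9* and *Cxcl10* in each of 9 comparisons, as the Hodges-Lehmann estimate (points) with its exact 95% interval (lines) on the log2 scale, relative to 18S on the left and to the panel median on the right. The interval lay above 0 on both scales for *Cxcl9* in P+eMSC against P at 6 weeks (0.50 to 6.23 and 0.01 to 3.87), and in no comparison for *Cxcl10*.

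To test whether the chemokines differed from each other, *Cxcl10* was set against *Cxcl9* within each mouse, as the *Cxcl9* Ct minus the *Cxcl10* Ct. The 18S Ct cancels in this difference, and a lower value is a balance that leans more to *Cxcl9* than in another mouse. The lowest, median and highest differences at 1 week were -2.12, 1.59 and 3.07 in sham, 0.60, 3.15 and 3.65 in P, with -3.02, 0.50 and 2.80 in P+eMSC. At 6 weeks they were -1.74, 2.18 and 2.90 in sham, -0.70, 1.02 and 3.98 in P, with -3.60, -0.31 and 1.83 in P+eMSC. The highest value in P was again that of mouse 2356. The P+eMSC groups had the lowest median of the week each time.

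P+eMSC compared to P leaned to *Cxcl9* at 1 week, with a shift of -2.28 in the difference (-4.76 to -0.09, exact p = 0.0350). All 7 P+eMSC mice lay below the P median and 4 lay below every P mouse. Leaving out single mice kept the shift between -2.62 and -1.98, and in 8 of 13 cases the call was lost. Within the animal number series the shift was -1.95 below 1000 (4 against 2, exact p = 0.133) and -3.81 above 2000 (3 against 4, exact p = 0.0571), and both were the smallest p possible. The estimate had the same sign at 6 weeks, -1.93 (-4.23 to 0.38, exact p = 0.0728), with 6 of 7 P+eMSC mice below the P median, and did not pass the threshold. Against sham, P+eMSC leaned to *Cxcl9* at 6 weeks with -2.14 (-4.17 to 0.15) at an exact p = 0.0513, on the threshold itself, and all 7 mice lay below the sham median. The call was lost at p below 0.05 and in 11 of 13 cases when a mouse was left out (-2.58 to -1.89). The comparisons with P and with sham shared the P+eMSC mice.

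The remaining comparisons of the difference were not called. They were 1.46 for P against sham at 1 week (exact p = 0.101), -0.65 for P+eMSC against sham at 1 week (exact p = 0.535) and -0.14 for P against sham at 6 weeks (exact p = 0.945). From 1 to 6 weeks the difference shifted by -0.89 in P (exact p = 0.234), by -0.80 in P+eMSC (exact p = 0.535) and by 0.44 in sham (exact p = 0.534). Whether the shift in P was called depended on the week at which mouse 2356 is counted, as given further on. Adjusted over these 9 comparisons the smallest exact p was 0.219, so no difference passed the correction.

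As background the same test was run on all 1431 pairs of target genes. It called 10.7% of pairs for P+eMSC against P at 1 week, 3.98% for the same comparison at 6 weeks and 1.75% for P+eMSC against sham at 6 weeks. In the comparisons where this pair was not called, the share was 10.6% for P against sham at 1 week, 0.908% for P+eMSC against sham at 1 week and 10.4% for P against sham at 6 weeks. Over time it was 2.8% in P, 1.68% in P+eMSC and 3.35% in sham. A call of a pair in P+eMSC against P at 1 week was thus not rare in this panel.

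**Figure D3:**
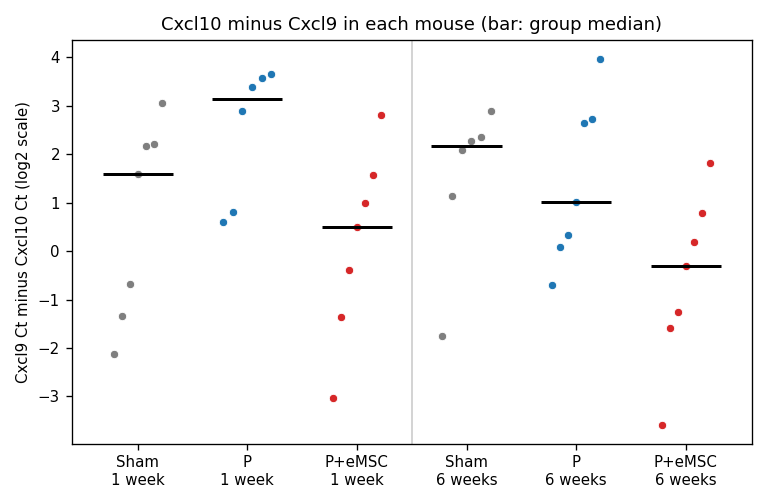
*Cxcl10* minus *Cxcl9* in each mouse, as *Cxcl9* Ct minus *Cxcl10* Ct on a log2 scale, with 1 point a mouse and a bar at the group median. The P+eMSC mice had medians of 0.50 at 1 week and -0.31 at 6 weeks, below those of P (3.15 and 1.02) and sham (1.59 and 2.18).

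From mouse to mouse the levels of the chemokines went together. Over 40 mice Pearson's r between their 18S-relative values was 0.700 (permutation p = 2e-05) and Spearman's rho was 0.715 (permutation p = 1e-05, the smallest the resamples can give). Taken as deviations from the group means, r was 0.747 and rho 0.778 (permutation p = 1e-05 each). Without the 2 mice farthest from the *Cxcl9* median the pooled r was 0.687. Within groups of 6 or 7 mice r ran from 0.655 in sham at 1 week to 0.860 in P at 1 week, with exact permutation p between 0.0359 and 0.103. In sham at 1 week r fell to 0.227 without the 2 farthest mice. Within the animal number series the deviations gave r = 0.732 below 1000 (21 mice) and r = 0.797 above 2000 (19 mice). After adjustment over the 10 relations computed, the permutation p of the pooled r was 0.0001 and those within groups were 0.0595 to 0.103.

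Part of this agreement was shared with the whole panel. Relative to 18S the median r of *Cxcl9* with the other genes was 0.638, and *Cxcl10* ranked 20 among them. For *Cxcl10* the median r was 0.689, and *Cxcl9* ranked 24. Relative to the panel median of each mouse r between the chemokines was 0.375 (permutation p = 0.0175, adjusted 0.0582) and rho 0.321 (permutation p = 0.0442, adjusted 0.0885). As deviations from the group means it was 0.483 (permutation p = 0.00169, adjusted 0.0169). By animal number these deviations gave r = 0.392 below 1000 (permutation p = 0.0779) and r = 0.618 above 2000 (permutation p = 0.00531).

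**Figure D4:**
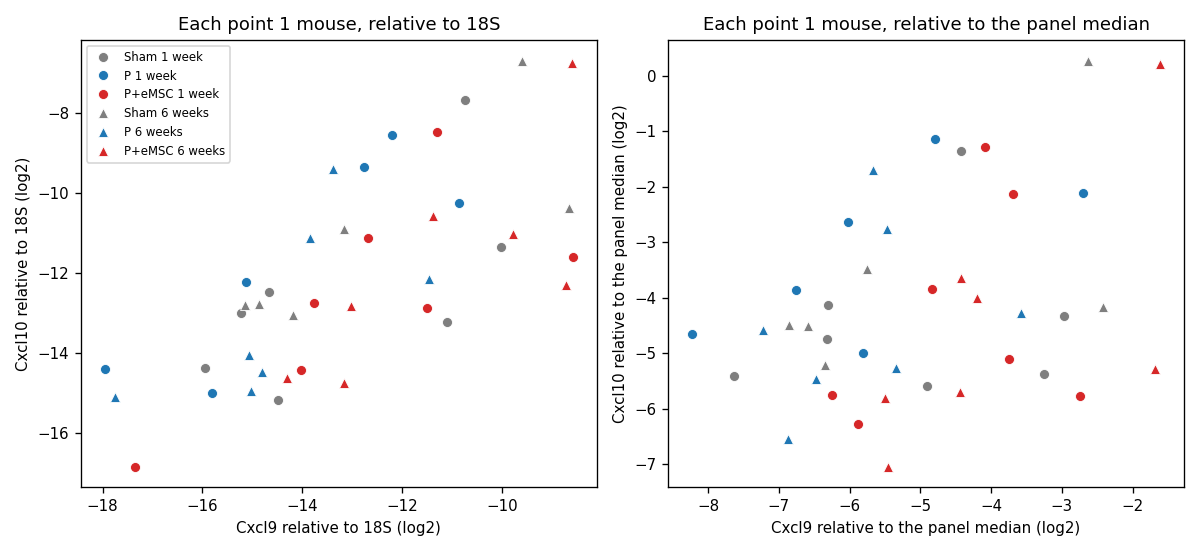
*Cxcl10* against *Cxcl9* in 40 mice, with 1 point a mouse, relative to 18S on the left and to the panel median on the right, both axes on a log2 scale. Over all mice r was 0.700 on the left and 0.375 on the right.

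The genes most like each chemokine across mice were not the same. Relative to the panel median and as deviations from group means, *Cxcl9* went most closely with *Cdh2*, the N-cadherin of mesenchymal cells (r = 0.533), with *Cxcl10* (0.483) and with *Arg1*, arginase of alternatively activated macrophages (0.454). *Cxcl10* went most closely with *Ccl4*, a macrophage chemokine (0.850 over 37 mice), *Il1b*, the inflammatory cytokine (0.823 over 39), and *Ccr7* (0.816 over 39), and *Cxcl9* ranked 21 for it. The same 3 genes had an r of 0.265, 0.313 and 0.312 with *Cxcl9*, and *Cdh2* had 0.116 with *Cxcl10*.

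Relative to 18S over all mice the nearest genes of *Cxcl9* were *Cdh2* (0.851), *Ccl11*, the eotaxin gene (0.842), and *Cxcl12*, a stromal chemokine (0.814). Those of *Cxcl10* were *Ccl12*, a monocyte chemokine (0.857), *Ccr7* (0.855 over 39 mice) and *Cd44*, an adhesion receptor (0.842). With the other chemokine these genes had r of 0.682, 0.494 and 0.708, and of 0.658, 0.567 and 0.596. On the panel median scale *Ccl11* had r = 0.217 with *Cxcl9* and -0.465 with *Cxcl10*. These are descriptions over the same 37 to 40 tissue samples, in which all genes share the RNA of a mouse, and whether the correlations differ was not tested.

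**Figure D5:**
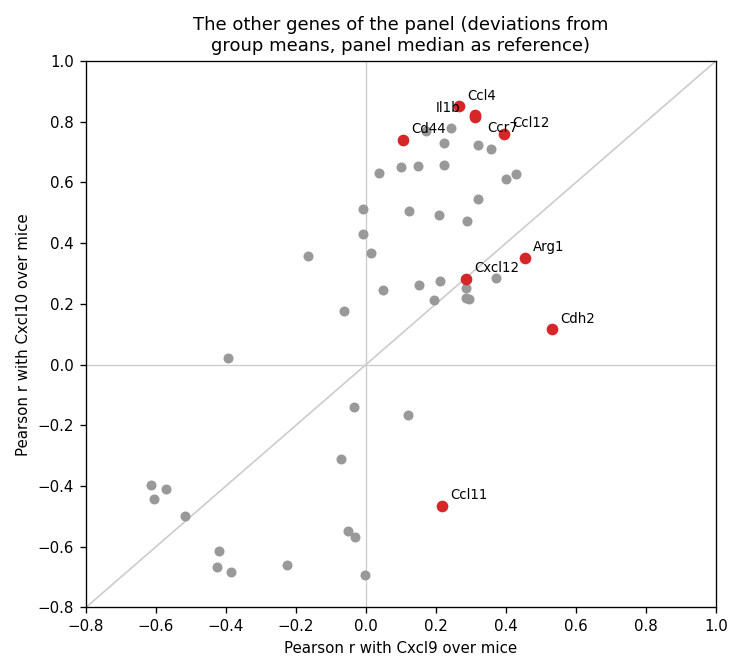
Pearson r of each other panel gene with *Cxcl9* (horizontal) and with *Cxcl10* (vertical), on deviations from group means relative to the panel median, with the named genes in red and the diagonal where both are equal. *Ccl4*, *Il1b* and *Ccr7* lay high for *Cxcl10* (0.816 to 0.850), and *Cdh2* lay far right for *Cxcl9* (0.533).

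Other interferon-inducible and NF-kB-driven genes of the panel were counted beside the chemokines. Of 8 interferon-inducible genes listed (*Nos2*, *Ccl2*, *Ccl5*, *Ccl7*, *Ccl12*, *Icam1*, *Cd80* and *Cd86*), 6 were in the table, all but the last pair. In P+eMSC against P at 6 weeks 0 of 6 were called, where 18.5% of all genes were, with a median shift of 0.62 beside 1.16 over all genes (0.30 beside 0.99 without mouse 52). The largest shifts were 1.96 for *Ccl5*, a chemokine of monocytes and T cells (-1.85 to 5.32, exact p = 0.232), and 1.13 for *Nos2*, the inducible nitric oxide synthase (-0.98 to 2.30, exact p = 0.259). At 1 week 0 of 6 were called and the median shift was -1.03 beside -0.07, with *Ccl2* at -1.99 (-4.77 to 1.33, exact p = 0.234) and *Ccl7*, a second monocyte chemokine, at -1.51 (exact p = 0.366). None of these 6 was called in any of the other comparisons relative to 18S either. With the panel median as reference, in P+eMSC against P 1 of the 6 was called lower at 6 weeks and 2 were called lower at 1 week. Of all 54 genes 2 and 5 were called there. In P against sham 4 of the 6 were called higher at 6 weeks and 2 at 1 week, beside 7 and 3 of all 54 genes. *Ccl5* and *Ccl12* are themselves among the genes of the panel median.

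The 7 NF-kB-driven genes (*Il1b*, *Tnfa*, *Il6*, *Cxcl1*, *Cxcl2*, *Ccl3* and *Ccl4*) were all in the table, and 0 of 7 were called in P+eMSC against P relative to 18S at either week. At 6 weeks their median shift was 0.35, and the largest were *Cxcl2*, a neutrophil chemokine (-1.13, exact p = 0.710), and *Ccl3*, a macrophage chemokine (1.01, exact p = 0.536). At 1 week the median was -1.64 and each of the 7 lay below 0, from -2.75 in *Cxcl2* (exact p = 0.310) and -2.42 in *Ccl3* (exact p = 0.295) to -0.81. *Cxcl10* also lay below 0 (-1.09, exact p = 0.628), while *Cxcl9* lay above it (1.30, exact p = 0.445). Of all 54 genes 28 lay below 0 in this comparison and 0 were called, so these signs place neither chemokine with the list. On the panel median scale 1 of the 7 was called lower in this comparison at 1 week, beside 5 of all 54 genes. In P against sham 1 of the 7 was called higher at each week, beside 3 of all 54 genes at 1 week and 7 at 6 weeks. With both chemokines counted, 1 of these 15 genes, *Cxcl9*, was called in P+eMSC against P at 6 weeks relative to 18S, a smaller share than the 18.5% of all 54 genes, so the count is no result about these lists.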

How the data were processed

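The authors extracted RNA with the RNeasy kit, made cDNA, preamplified it in 14 cycles and ran TaqMan assays on a Fluidigm dynamic array. They deposited Ct values without normalization, where 999 or no value marks no Ct, and linear fold change ratios against sham made with 18S. A Ct has no read depth, so the number of mice limits the precision. Of 40 deposited fold changes for each chemokine, 39 lay within 0.01 (log2) of the value recomputed from Ct, and that of mouse 2356 (P, 6 weeks by its label) followed the 1 week sham. The Ct table was used here.

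Groups came from the labels. Both genes, the lists of genes and the rule for naming genes (the 3 most correlated on each scale, and per list the called genes or the 2 largest shifts) were chosen with earlier results of these data known. Each comparison used an exact version (two-sided) of the Mann-Whitney U test of the methods, with every rank sum enumerated, the Hodges-Lehmann shift and its exact 95% interval, at least 4 values per group and Benjamini-Hochberg adjustment over 54 genes. A call was p of 0.0513 or less, the smallest value above 0.05 that 6 against 7 mice allow. Interactions were tested in limma 3.58.1 (R 4.3.3), called at an adjusted p below 0.05. Correlations used 100000 resamples, or all pairings within groups. Undetected values were left out. The tests were tested on simulated data. The authors made 1 eMSC line from each of 7 women and counted each line as n = 1. Which line a mouse received, and whether lines recurred at 1 and 6 weeks, is not given in the labels. Differences between donors could enter the P+eMSC groups only. The labels also do not say whether mice shared a cage or a surgery day. The p-values treat the mice of a group as independent. Promoters were read from a RefSeq table of GRCm38.p6, which held both genes. Python 3.11.15 with numpy 2.4.6, scipy 1.17.1, pandas 2.3.3 and matplotlib 3.10.9 was used.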

Additional observations from a re-analysis of the deposited data

Results flagged for a closer look

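Among 24 sets of values (both chemokines, their difference and the panel median, in 6 groups each) 1 mouse stood far from the rest of its group, where chance alone puts about 1 set in 20. It was mouse 52 of P at 6 weeks, whose panel median lay -16.94 relative to 18S, against -10.52 to -7.70 in the other 7 mice. Neither chemokine had a Ct in this mouse, so it entered none of their values.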

How the results depend on the processing

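Each mouse was left out in turn in 609 recalculations, of which 566 kept the direction and the side of the threshold, and of 243 other alternatives 215 did. *Cxcl9* in P+eMSC against P at 6 weeks kept its call at the unadjusted threshold in each of its own recalculations. Its adjusted exact p was, however, 0.158 (0.487 with the panel median), and it was not called in either animal number series alone. Its shifts were 2.27 to 3.67 and its exact p 0.00466 to 0.0221 when a mouse was left out. The limits are the spread between mice, which leaves intervals several log2 units wide, and the choice of reference. Gapdh was not in the Ct table, so it was not run as a reference. No paired analysis was possible because each mouse had 1 treatment and 1 time.

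With the panel median as reference the sign turned for *Cxcl9* from 1 to 6 weeks in P (0.00787) and in sham (-0.0431), and for *Cxcl10* in P+eMSC against sham at 1 week (-0.34), in P+eMSC against P at 6 weeks (-0.43) and from 1 to 6 weeks in P+eMSC (-0.0608). *Cxcl10* in P+eMSC against sham at 1 week also turned to -0.12 by the exact permutation of the mean and in limma. Within the animal number series *Cxcl10* in P against sham at 1 week turned to -0.44 and the difference *Cxcl10* minus *Cxcl9* from 1 to 6 weeks in P+eMSC to 0.0794. The difference in P+eMSC against P at 6 weeks passed the threshold within the series (-2.45, exact p = 0.0405). The difference in P+eMSC against sham at 6 weeks lost its call within the series (-2.29, exact p = 0.0667), by permutation of the mean (-2.07, exact p = 0.0554) and at p below 0.05 (-2.14). With mouse 2356 counted at 1 week the difference between 6 and 1 week in P was called (-1.42, exact p = 0.0350). The correlation had a permutation p above 0.05 within P at 6 weeks (r = 0.664), P+eMSC at 1 week (0.740) and sham at 1 week (0.655), which hold 7 mice each. The cause of these changes was not tested.

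When single mice were left out, the difference in P+eMSC against P at 1 week stayed between -2.62 and -1.98 but lost its call in 8 of 13 cases (exact p of 0.0177 to 0.0732), all but mice 10, 61, 532, 2355 and 2396, and that in P+eMSC against sham at 6 weeks lost it in 11 of 13 (-2.58 to -1.89), all but mice 2317 and 401. The difference gained a call in 4 of 14 cases in P+eMSC against P at 6 weeks (-2.37 to -1.48), without P+eMSC mice 2317 or 2400 or P mice 438 or 437, and in P against sham at 1 week (1.33 to 1.88) without P mice 2355 or 2396. The sign turned for *Cxcl9* in P+eMSC against sham at 1 week (-0.30 to 1.46) and from 1 to 6 weeks in P (-1.17 to 0.31), for *Cxcl10* in P+eMSC against sham at 1 week (-0.14 to 0.60), from 1 to 6 weeks in P+eMSC (-0.00034 to 0.79) and in the interaction of P+eMSC against sham with week (-1.47 to 0.26), and for the difference in P against sham at 6 weeks (-1.06 to 0.36).

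The number of panel genes called in P+eMSC against P moved from 0 to 5 at 1 week and from 10 to 2 at 6 weeks with the panel median. In P against sham the direction turned, from 14 lower to 7 higher at 6 weeks and from 3 lower to 3 higher at 1 week. The number moved in P+eMSC against sham from 0 to 1 at 1 week and from 0 to 2 at 6 weeks, and from 1 to 6 weeks from 0 to 1 in P+eMSC and from 2 to 1 in sham. At an adjusted p below 0.05 it was 0 in P+eMSC against P at 6 weeks, 2 in P against sham at 6 weeks, and 0 where 3 and 2 genes were called in P against sham at 1 week and in sham over time.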
